A study of Mus musculus with 6 samples.

Results

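The genes described here handle calcium at the endoplasmic reticulum store and the plasma membrane of T cells: the IP3 receptors Itpr1, Itpr2 and Itpr3, the store sensors Stim1 and Stim2, the entry channel Orai1, and the calcium pumps Atp2a2, Atp2a3, Atp2b1 and Atp2b4. These 10 genes were chosen by name, with earlier results of the same arrays known, and their probes were found as those that carry the name in the array's own annotation. Of the 10 genes, 9 had a probe and all 9 were tested, out of 19225 genes tested in all. Atp2b4 had no probe under its name or its RefSeq accessions, and its level was not measured here. Because the comparison described below was in view when the genes were chosen, their values are a description, and the adjusted p-values say only where each gene lies in the fit across all genes.

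CD4 T cells from the spleens of C57BL/6J mice, kept resting, were compared on arrays with and without treatment with vasoactive intestinal peptide (VIP), a neuropeptide. The sample titles call the cells spleenocytes. Cells came from males and females between 6 and 32 weeks old, with 5 to 10 spleens pooled for each sample, and were selected with magnetic beads against CD4. Every value is therefore an average over the animals of a pool and over all cells the beads retained, and fewer cells of a type and less RNA per cell cannot be told apart. A VIP-treated and an untreated sample were put together on each of 6 Agilent 2-colour arrays, so each treatment has 6 samples. The VIP-treated sample was labelled with Cy5 in replicates 1, 3 and 5 and with Cy3 in the even-numbered ones, and each of 3 slides held 1 array of either orientation. The labels call the 6 replicates biological. The p-values measure how the ratio of the VIP-treated to the untreated sample varied between the 6 arrays. How much VIP was used, and for how long, is not stated in the labels.

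In T cells, engagement of the antigen receptor activates phospholipase C, which makes the messenger IP3. IP3 opens IP3 receptors, which are large tetrameric channels in the endoplasmic reticulum membrane, and calcium leaves the store. The STIM proteins sense the emptied store and open ORAI channels in the plasma membrane, the main route of sustained calcium entry into lymphocytes. SERCA pumps, encoded by Atp2a genes, refill the store, and PMCA pumps, encoded by Atp2b genes, export calcium from the cell. VIP receptors couple mainly to cyclic AMP, a second messenger other than IP3. Here the cells were resting, and only RNA was measured.

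With each gene read from its brightest probe, Itpr1 and Itpr2 hold the largest differences among these genes. Both genes lie on chromosome 6, far apart, each with a pair of neighbouring probes that show the difference. The first 30 of the 60 bases of each are printed 5′ to 3′, since the readings of Itpr1 and Itpr2 depend on which of these probes is used.
Itpr1 probe A_52_P118756: aatgagttagctgatggtttctagattttc
Itpr1 probe A_51_P269663: aaactgaaccgtatgcagagttccgaagca
Itpr2 probe A_51_P500051: aaacaaccaagtgccaagatgctgagccat
Itpr2 probe A_51_P500056: gaacaaaggaaaaacaagcaaaggctgggc
On the mm9 build, per the file headers, the Itpr1 probes lie at chr6:108500698-108500757 and chr6:108501020-108501079 on the plus strand, and the Itpr2 probes at chr6:146060030-146060089 and chr6:146060214-146060273 on the minus strand. An exon annotation of that build was not used here, so exon or UTR is not stated.

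The samples on replicates 3 and 6 differed in transcripts of the sex chromosomes, in opposite ways. On replicate 3 the log2 ratio, VIP over untreated, was -6.12 for Xist, the RNA of the inactive X chromosome, and 2.04 for the Y-linked gene Ddx3y. On replicate 6 the same ratios were 2.03 for Xist and -3.96 for Ddx3y. Over the other 4 arrays Xist lay between -0.08 and 0.34. The fitted value of each gene is therefore also given from those 4 arrays, a choice made after these values were seen.

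Itpr1 rose and Itpr2 fell with VIP, while none of the other 7 genes passed the test. Itpr1 encodes the type 1 receptor and Itpr2 the type 2 receptor, which is known for its high sensitivity to IP3. With each gene read from its brightest probe, Itpr1 was 1.22-fold higher (log2 ratio 0.28 ± 0.054, standard error, 5 arrays, 95% interval 0.16 to 0.40, limma adjusted p = 0.0237). Itpr2 was 1.28-fold lower (log2 ratio -0.36 ± 0.042, 6 arrays, interval -0.45 to -0.26, limma adjusted p = 0.00187). A gene was called at an adjusted p under 0.05, with the adjustment over all genes tested. By this rule 2 of the 9 genes were called, against 3.08% of all genes in either direction, 1.72% for higher and 1.37% for lower. The median log2 ratio of the 9 genes was 0.02, with 5 above and 4 below 0, and that of all genes was -0.0047. Nothing is read from the 2 calls against that background, since the genes were chosen with this comparison known.

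**Figure D1:**
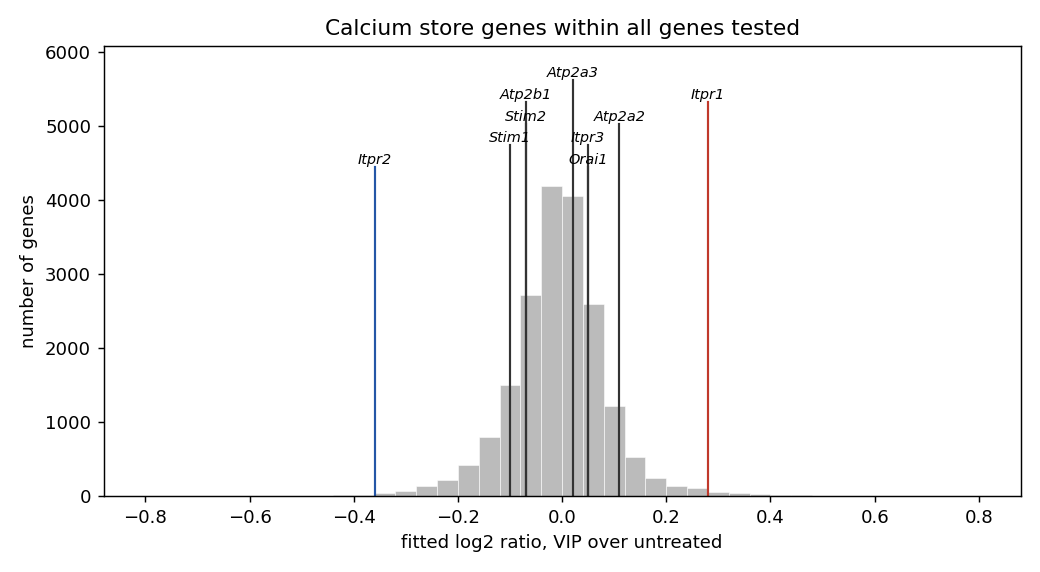
Fitted log2 ratios (VIP over untreated) of all genes tested (grey bars, number of genes in bins of equal width; genes beyond 0.8 in either direction are not drawn), with a vertical line at the value of each calcium store gene. Itpr2 at -0.36 (blue, called) and Itpr1 at 0.28 (red, called) stand in the tails, and the other 7 genes (black, not called) lie between -0.10 and 0.11.

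Itpr1 was measured by 2 probes. On probe A_52_P118756 the log2 ratios of replicates 1 to 6 were 0.43, 0.40, 0.23, 0.22, 0.29 and 0.56. All 6 arrays were higher with VIP, in both dye orientations (means 0.32 with VIP in Cy5 and 0.39 with VIP in Cy3) and on all 3 slides (0.42, 0.22 and 0.43). The normalized log2 intensity was 11.49 ± 0.11 (SD, n = 6) with VIP and 11.13 ± 0.13 (n = 6) without. The lowest VIP-treated sample was at 11.37 and the highest untreated sample at 11.28. How many of all probes separate in this way was not counted, so nothing is read from it. With the channels unpaired this probe was not called (limma adjusted p = 0.718). In the fit over all 27454 kept probes, of which 2.88% were called, this probe had a log2 ratio of 0.35 ± 0.052 (interval 0.24 to 0.47, limma adjusted p = 0.00561).

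The brightest Itpr1 probe, A_51_P269663, was less even. Its ratios were 0.01, 0.70, 0.41, 0.02 and 0.54 on replicates 1, 2, 4, 5 and 6, and its spot on replicate 3 was left out because the scanner software had marked it as an outlier. The arrays with VIP in Cy5 averaged 0.02 and those with VIP in Cy3 averaged 0.55, a dye difference that the model takes up as a dye term of -0.27. All 5 measured arrays were above 0, but the size differed by dye and the VIP and untreated samples overlapped (13.12 to 13.52 against 12.48 to 13.24). With the slide as a block the value of this probe was 0.25 and its adjusted p was 0.0503 among the genes. Leaving out replicate 1, 2, 5 or 6 also ended its call (adjusted p = 0.114, 0.0565, 0.142 and 0.0628). Probe A_52_P118756 stayed called in each of these fits.

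Itpr2 was measured by 6 probes, of which 5 were kept. On the brightest, A_51_P500051, the log2 ratios of replicates 1 to 6 were -0.48, -0.19, -0.37, -0.36, -0.49 and -0.23. Every array was lower with VIP, and the slide means were nearly equal at -0.34, -0.36 and -0.36. The level was 13.93 ± 0.37 (SD, n = 6) with VIP and 14.28 ± 0.34 (n = 6) without on the log2 intensity scale. The ranges of the groups overlapped (13.64 to 14.59 against 13.84 to 14.83), while within each array the VIP-treated sample was the lower one.

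The neighbouring probe A_51_P500056 was also lower on 6 of 6 arrays, with ratios of -0.14, -0.56, -0.02, -0.51, -0.17 and -0.33. Its fitted value was -0.29 ± 0.046 (limma adjusted p = 0.00845 over probes). Its call was lost in 5 of 18 alternatives, among them the fit with no dye term (adjusted p = 0.168) and that without replicate 5 (adjusted p = 0.0515). Here the arrays with VIP in Cy3 gave the larger differences (mean -0.47, against -0.11 with VIP in Cy5), the opposite of the brightest probe (-0.26 against -0.45). Probe A_52_P443988, farther into the gene at chr6:146240083-146240142, was lower on 6 of 6 arrays but was not called (-0.14 ± 0.041, limma adjusted p = 0.107). Probe A_51_P480408, whose alignment spans 1750 bases of the genome, had 3 arrays above and 3 below 0 (fitted value -0.11). Probe A_52_P494207, which the array pairs with a cDNA clone, had a fitted value of -0.11 with 5 arrays below 0. These last 3 probes were dim, at mean log2 intensities of 7.17 to 7.39, where the offset of 50 in the background correction draws ratios toward 0. With an offset of 10, A_52_P443988 stood at -0.20 and A_51_P480408 at -0.16, both still not called. The remaining Itpr2 probe, A_51_P468269, did not stand well above background on any array (0 of 6) and was not tested.

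Averaging all kept probes of a gene in place of the brightest gave 0.34 for Itpr1 (adjusted p = 0.00367) and -0.20 for Itpr2 (adjusted p = 0.0155). From the 4 arrays without the difference in sex-linked transcripts, Itpr1 was 0.28 (adjusted p = 0.0487) and Itpr2 was -0.38 (adjusted p = 0.00898). On those arrays Itpr1 probe A_52_P118756 was at 0.33 (adjusted p = 0.0191 over probes) and Itpr2 probe A_51_P500056 at -0.35 (adjusted p = 0.00955 over probes). Both genes kept their direction in each of the 18 alternatives to the processing. The call was lost in 11 of the 18 for Itpr1 and in 3 for Itpr2. Neither gene was called from the scanner software's own processed signals, where the values were 0.28 (adjusted p = 0.224) and -0.35 (adjusted p = 0.0801). Only 33 of all genes were called from those signals.

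**Figure D2:**
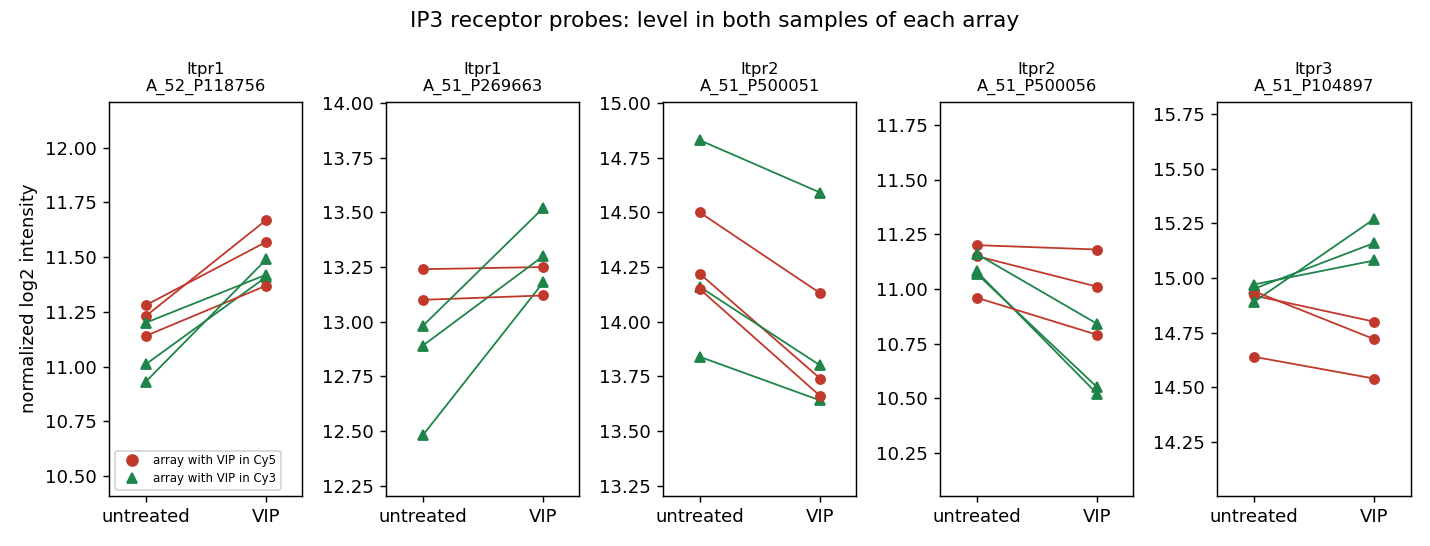
Normalized log2 intensity of 5 IP3 receptor probes in the untreated and the VIP-treated sample of each array, joined by a line, with VIP in Cy5 in red circles and VIP in Cy3 in green triangles; the panels have the same height but different offsets, since probes are not compared in level. Both samples of replicate 3 are missing for Itpr1 probe A_51_P269663. All lines rise for Itpr1 probe A_52_P118756 and all fall for both Itpr2 probes, while those of Itpr3 rise with VIP in Cy3 and fall with VIP in Cy5.

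The opposite signs of the type 1 and type 2 receptors held within every array on Itpr1 probe A_52_P118756 and both called Itpr2 probes. For A_51_P500056 the ratio on replicate 3 was only -0.02. That Itpr1 probe is not the brightest and was taken with its values known. The brightest, A_51_P269663, was at 0.01 and 0.02 on replicates 1 and 5 and was not measured on replicate 3. The ratio of Itpr1 probe A_52_P118756 minus that of Itpr2 probe A_51_P500051 was 0.92, 0.59, 0.60, 0.57, 0.78 and 0.79 on replicates 1 to 6, a mean of 0.71 ± 0.14 (SD, n = 6). Against the other Itpr2 probe, A_51_P500056, the same difference ran from 0.25 to 0.96 (mean 0.64 ± 0.27). No test is given, since both genes were already known to differ in opposite directions.

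Itpr3 encodes the type 3 receptor, and its single probe (chr17:27259102-27259161) was bright in all 12 samples. Its ratios were -0.12, 0.38, -0.09, 0.22, -0.22 and 0.11, positive on every array with VIP in Cy3 and negative on every array with VIP in Cy5. With the dye term the fitted value was 0.05 (interval -0.06 to 0.15, limma adjusted p = 0.693). The level was 14.93 ± 0.29 (SD, n = 6) with VIP and 14.88 ± 0.13 (n = 6) without, and the groups overlapped. With each array centred on its median in place of loess the value was -0.00272, so its sign is not settled.

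**Figure D3:**
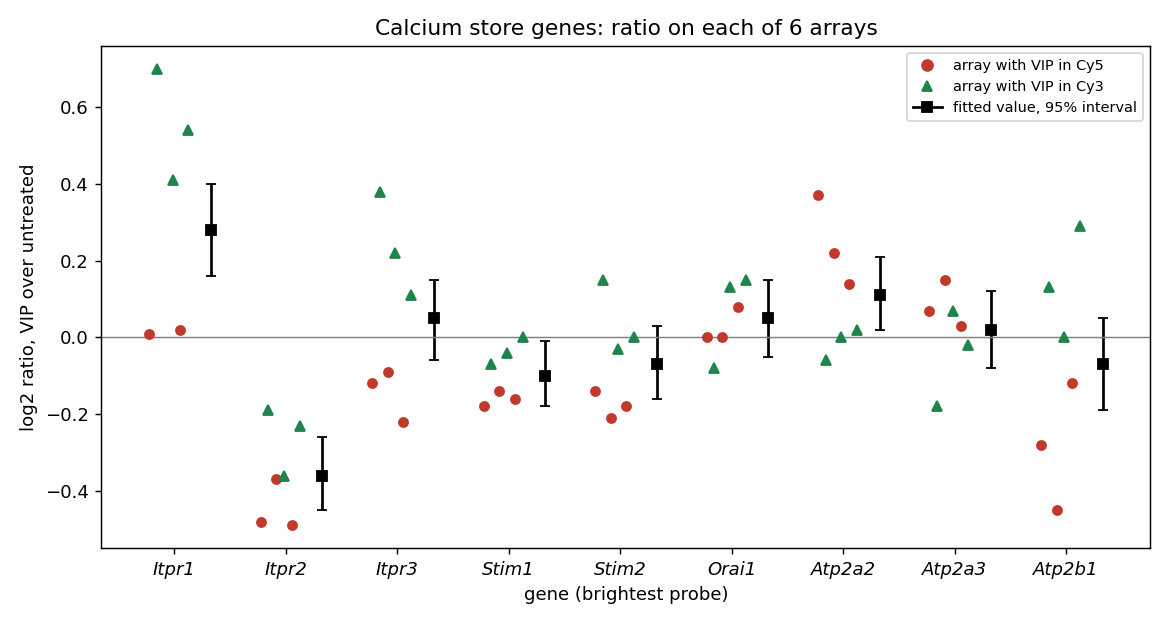
Log2 ratio, VIP over untreated, on each array for the brightest probe of the 9 measured genes (red circles, VIP in Cy5; green triangles, VIP in Cy3), with the value fitted with a dye term and its 95% interval (black squares). Itpr2 is below 0 on all 6 arrays and Itpr1 above 0 on all 5 measured arrays, while Itpr3 splits by dye around 0.

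The store sensors did not pass the test. Stim1 encodes the main sensor of T cells, and its bright probe A_51_P188373 had ratios of -0.18, -0.07, -0.14, -0.04, -0.16 and 0.00. The fitted value was -0.10 ± 0.039 (interval -0.18 to -0.01, unadjusted p = 0.0283, limma adjusted p = 0.230). Levels were 13.59 ± 0.14 (SD, n = 6) with VIP and 13.69 ± 0.19 (n = 6) without, with overlapping ranges. Its other probe, which the array pairs with a clone, was dim, with 3 arrays above and 3 below 0 (fitted value -0.06).

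Stim2 encodes the sensor that responds to smaller losses of store calcium. Its brighter probe, A_51_P516526, had ratios of -0.14, 0.15, -0.21, -0.03, -0.18 and 0.00, with a fitted value of -0.07 (interval -0.16 to 0.03, limma adjusted p = 0.484). The other Stim2 probe was at -0.04. In neither sensor did the values of VIP-treated and untreated samples separate.

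Orai1 encodes the pore of the store-operated channel and had 1 probe, at chr5:123479321-123479380. Ratios were 0.00, -0.08, 0.00, 0.13, 0.08 and 0.15, and the fitted value was 0.05 (interval -0.05 to 0.15, limma adjusted p = 0.677). Its level was 11.43 ± 0.23 (SD, n = 6) with VIP and 11.39 ± 0.18 (n = 6) without. As a ratio of VIP-treated to untreated, that interval runs from 0.964 to 1.11.

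Of the SERCA pumps, Atp2a2 encodes the widely expressed SERCA2 and Atp2a3 the SERCA3 of blood cells. The brightest Atp2a2 probe, A_52_P569001, had ratios of 0.37, -0.06, 0.22, 0.00, 0.14 and 0.02, the 3 higher values all with VIP in Cy5. Its fitted value of 0.11 (interval 0.02 to 0.21, unadjusted p = 0.0257, limma adjusted p = 0.218) is the largest in size among the genes that were not called. The other 2 kept Atp2a2 probes were at 0.06 and 0.04, and the remaining one, detected well above background on 2 of 6 arrays only, was not tested. The single Atp2a3 probe had ratios of 0.07, -0.18, 0.15, 0.07, 0.03 and -0.02 (fitted value 0.02, interval -0.08 to 0.12, limma adjusted p = 0.894). Its sign turned without replicate 4 (-0.00984) and on the 4 matched arrays (-0.00306), so neither direction is given.

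Atp2b1 encodes PMCA1, the housekeeping pump of the plasma membrane, and its 4 probes did not read alike. The brightest, A_52_P348986, had ratios of -0.28, 0.13, -0.45, 0.00, -0.12 and 0.29 and a fitted value of -0.07 (interval -0.19 to 0.05, limma adjusted p = 0.558). A_51_P222543 was at -0.09 and A_51_P230799 at 0.04, both with 3 arrays above and 3 below 0. Only A_52_P351913 was called: it was lower on 6 of 6 arrays, with ratios of -0.16, -0.29, -0.55, -0.30, -0.10 and -0.43 and a fitted value of -0.31 ± 0.059 (limma adjusted p = 0.0216 over probes). The array pairs that probe with a cDNA clone and places it at chr10:98456895-98456954 on the plus strand, before the other 3 probes (chr10:98477236-98488006 in all). The first 30 bases of the called probe and of the brightest one are printed because both carry the name Atp2b1 and give different readings.
Atp2b1 probe A_52_P351913: taggatctgtagtcttcatctaacctcgta
Atp2b1 probe A_52_P348986: ttttttgttcttcatagacgggaagctccc
The call of the clone's probe was lost in 10 of 18 alternatives. These include the fits without replicate 2, 4 or 6 (adjusted p = 0.0558, 0.0521 and 0.0788) and the 4 matched arrays (value -0.21, adjusted p = 0.0765). Which transcript it reads was not tested.

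**Figure D4:**
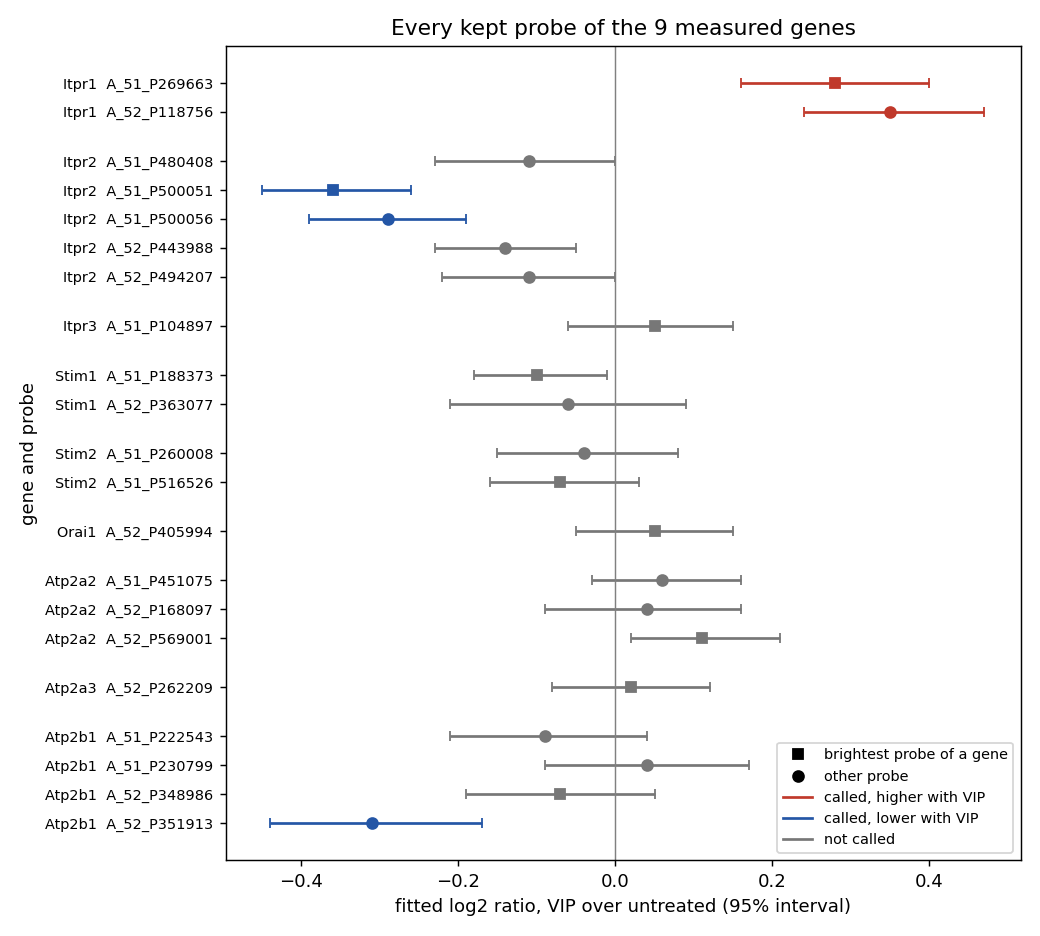
Fitted log2 ratio (VIP over untreated) with its 95% interval for each of the 21 kept probes, grouped by gene (squares, brightest probe of a gene; circles, other probes; red, called higher; blue, called lower; grey, not called). The 5 called probes are both of Itpr1, 2 of Itpr2 and 1 of Atp2b1.

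Across the 9 genes, 21 of 23 probes were kept, and all 21 were well above background on 6 of 6 arrays in both treatments. No spot of these probes was saturated. Of the 21 probes 5 were called, against 2.88% of all kept probes. Nothing is read from that share, since the genes were chosen with this comparison known and probes of 1 gene are not independent. With each gene read from its brightest probe, Stim1 and Atp2a2 had an unadjusted p under 0.05 besides Itpr1 and Itpr2. The 7 genes not called had adjusted p-values between 0.218 and 0.894. None of them was called on the 4 matched arrays either, where Itpr3 was at 0.07, Stim1 at -0.11, Stim2 at -0.05, Orai1 at 0.03, Atp2a2 at 0.11 and Atp2b1 at -0.07.

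Promoter windows from RefSeq (build GRCm38.p6) were listed for 8 of the 10 genes, 9 windows in all, and Itpr1 and Atp2a2 are not among them. They were searched because VIP receptors couple to cyclic AMP, whose DNA element is known. The 250 bases before the start were read on both strands. The cyclic AMP response element, TGACGTCA, was in 1.55% of all 32851 windows and in 0 of the 9, which do not cover Itpr1. Its short form, TGACG, which the full element contains, was in 17.8% of all windows and was found for Orai1 and Stim1. The CCAAT box, spelled by its name, was in 33.8% of all windows and was found for Itpr2, Orai1 and Stim2. The GC box, GGGCGG, was in 32.7% of all windows and in 8 of the 9, all but that of Atp2b4, with Atp2b1 counted more than once. Those 8 windows were 66.8% to 80.8% G and C, against 45.6% for Atp2b4. No comparison with windows of like base content was made. The windows of Itpr2, the gene that fell, and of Orai1, which has 1 short element and was not called, are printed 5′ to 3′ with all matches on either strand in capitals.
Itpr2 promoter, chr6:146502224-146502473, minus strand: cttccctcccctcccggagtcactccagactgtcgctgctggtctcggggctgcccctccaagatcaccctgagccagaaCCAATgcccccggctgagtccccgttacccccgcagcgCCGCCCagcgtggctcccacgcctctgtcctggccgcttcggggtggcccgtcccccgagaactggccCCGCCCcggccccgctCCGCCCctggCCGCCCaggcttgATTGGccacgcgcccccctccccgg
Orai1 promoter, chr5:123014824-123015073, plus strand: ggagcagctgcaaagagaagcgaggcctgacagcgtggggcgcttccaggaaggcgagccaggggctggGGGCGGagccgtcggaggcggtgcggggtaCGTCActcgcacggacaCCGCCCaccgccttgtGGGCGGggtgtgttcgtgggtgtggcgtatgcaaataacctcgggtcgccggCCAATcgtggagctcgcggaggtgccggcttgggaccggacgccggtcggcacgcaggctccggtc
The Itpr2 window holds 2 CCAAT boxes and 4 GC boxes, and the Orai1 window 1 short cyclic AMP element, 1 CCAAT box and 3 GC boxes. A match is a string of letters and not a shown binding site, and no binding was measured.

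A wider list of 93 names of calcium handling genes (phospholipases C, ryanodine receptors, other ORAI and STIM partners, mitochondrial uptake, exchangers, store proteins and membrane channels) had 81 names with a probe and 63 tested. Of these, 1 rose, 1 fell and 61 did not pass the test, so 3.17% were called beside 3.08% of all genes. The median log2 ratio of the list was 0, with 31 values above 0. In the list, Mcu is tested under its present and an old name, Ccdc109a, since 1 of its probes could not be updated.

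Mcub, which encodes the inhibitory subunit of the mitochondrial calcium uniporter, rose by 0.24 ± 0.05 on the log2 scale (1.18-fold, higher on 6 of 6 arrays, limma adjusted p = 0.0253). Its ratios ran from 0.13 to 0.52, and its call was lost when each of replicates 2 to 6 was left out in turn, and in 12 of 18 alternatives in all. Tespa1, which encodes a T cell protein that binds IP3 receptors, was at -0.24 ± 0.054 (1.18-fold lower, on 6 of 6 arrays from -0.42 to -0.07, limma adjusted p = 0.0419), and its call was lost in 13 of 18. On the 4 matched arrays Mcub was at 0.19 (adjusted p = 0.101) and Tespa1 at -0.24 (adjusted p = 0.13). The pore subunit Mcu, at 0.03, and the ORAI paralogs Orai2, at -0.14 (limma adjusted p = 0.0966), and Orai3, at -0.05, are named here after their values were seen. None of those 3 was called.

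**Figure D5:**
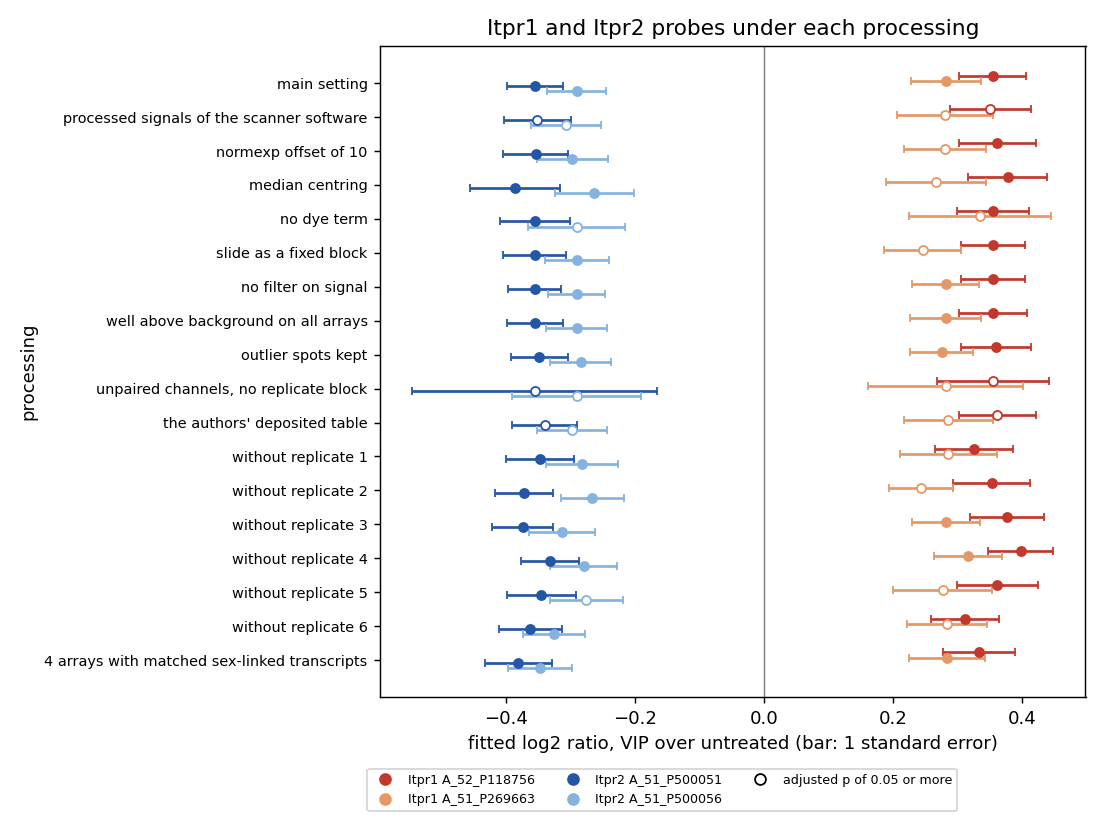
Fitted log2 ratio, VIP over untreated (bar: 1 standard error) of 4 IP3 receptor probes under the main processing and each alternative that applies to single probes; filled points have an adjusted p under 0.05 and open points do not. All 4 probes keep their side of 0 throughout, and all points are open for the scanner software's processed signals, the deposited table and the fit of unpaired channels.

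The labelled cell type and other spleen cells were checked by marker lists. The CD4 T cell markers Cd3d, Cd3e, Cd3g, Cd4, Cd5, Cd28, Lck, Lat, Thy1 and Zap70 were each well above background on every array, and of these Thy1 was called lower with VIP (log2 ratio -0.29, limma adjusted p = 0.0149). Cd4 itself was at 0.01. Of the lists of other cells, 10 B cell, 10 macrophage and monocyte, 4 neutrophil, 5 dendritic, 4 NK, 7 platelet, 4 erythroid and 2 CD8 T cell markers were tested with none called. Of 5 plasma cell markers, Xbp1, which T cells also express, was called higher (0.31, limma adjusted p = 0.00271). The summed intensity of the 10 B cell markers ran from 8960 to 17500 with VIP and from 10100 to 18400 without, and that of 9 macrophage and monocyte markers from 3360 to 6610 with VIP and from 2970 to 6090 without. These sums include the offset of 50 of the background correction, so no list could be at 0. A sum alone therefore does not show that such cells were present. Of the markers tested, 10 of 10 B cell, 2 of 2 CD8 T cell and 4 of 5 plasma cell ones were well above background on every array. So were 9 of 10 macrophage and monocyte, 3 of 4 neutrophil, 3 of 5 dendritic, 2 of 4 NK, 3 of 7 platelet and 2 of 4 erythroid ones. On single arrays the median log2 ratio of a list varied most for neutrophil markers (-0.16 to 0.46). It ran from -0.24 to 0.32 for macrophage and monocyte, -0.18 to 0.23 for CD8 T cell and -0.16 to 0.07 for B cell markers. The part of such cells in the values of the calcium genes was not tested.

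Over the whole series, 593 of 19225 genes were called, 330 higher and 263 lower, and 3212 had an unadjusted p under 0.05. The median size of a log2 ratio was 0.048 over all genes and 0.28 over the called ones. The median standard error was 0.048, and the number of arrays limits the precision. Between 1.93% and 8.96% of the spots on an array were marked as outliers. Median signals ran from 83.6 to 108 in Cy3 and from 148 to 235 in Cy5.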

How the data were processed

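RNA abundance was measured on 6 2-colour arrays. The authors deposited 1 scanner table per array with the intensity of each spot, made with Agilent Feature Extraction 9.5.1.1, per the file headers. Their deposited table of log10 ratios (VIP over untreated) equals the software's own ratio once the sign is reversed where VIP was in Cy3 (largest difference 4.8e-06, every array's median 0), and was used only as an alternative. The mean signal and median local background were corrected with normexp (offset 50) and normalized within arrays by loess in limma 3.58.1 and R 4.3.3, without control spots and spots marked as outliers. The offset draws ratios of dim probes toward 0. A probe was kept if well above background on at least 3 of 6 arrays in either treatment. It also had to be left with 2 or more measured arrays in each of both orientations of the dyes. This left 27454 of 41174 probes, and each of 19225 genes was read from its brightest kept probe. Names were updated by RefSeq accession for 24844 probes (60.3%).

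The log2 ratio (VIP over untreated) was fitted with limma (linear model with a dye term, empirical Bayes, 2-sided, Benjamini-Hochberg over all genes or all probes). There were 6.54 prior degrees of freedom, and 4 residual ones for a gene measured on all 6 arrays. Genes with a spot left out, such as Itpr1, had fewer residual ones. Both samples of a replicate number share an array by design, so the fit is paired by array. On replicates 3 and 6 both samples of the array differed in sex-linked transcripts, so there the pairing does not stand for the same animals. The fit was tested on simulated data with independent noise for each gene, which does not give its error rate on these arrays. Alternatives changed the background correction, normalization, dye term, slide, filter, outlier spots, choice of probe, pairing, table and arrays. The genes, the calcium and marker lists and the tests were chosen with earlier results of these data known. All 10 genes are named with every probe, and of the wider calcium list those called. The result of 1 gene of the marker lists is not reported here. Promoter sequences are RefSeq's, of build GRCm38.p6, and probe coordinates are mm9, per the file headers, counted from 1.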

Additional observations from a re-analysis of the deposited data

Results flagged for a closer look

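An array that stood apart from the others was looked for in 28 sets of array values (the calcium store probes, both called list genes and the sex-linked transcripts), and 4 had one. Chance flags about 1 in 20 such sets. Xist had a log2 ratio of -6.12 on replicate 3, with the nearest other array at -0.08. Ddx3y was at -3.96 on replicate 6, with the nearest at -0.21, and Eif2s3y was at -4.8 on the same array, with the nearest at -0.06. Mcub, of the wider calcium list, was at 0.52 on replicate 3, with the nearest array at 0.25. No kept probe of the calcium store genes had such an array.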

How the results depend on the processing

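Of the 9 genes 2 were called. The count was 1 with a normexp offset of 10, median centring, no dye term or the slide as a block, and 0 with the scanner software's processed signals, the authors' deposited table or unpaired channels without the replicate block. Leaving out 1 replicate gave 1 to 2. It was 3 with every probe on its own and 2 with each other choice of filter, outlier spots or probe mean and on the 4 arrays whose samples matched in sex-linked transcripts. The call that was lost where 1 remained is that of Itpr1. Over all genes the 593 calls became 33 with processed signals, 41 with the deposited table, 286 with an offset of 10, 308 with median centring, 124 with no dye term, 5 with unpaired channels, 368 on the 4 matched arrays, and 254 to 498 without 1 replicate. Over probes the 790 calls became 43, 58, 413, 452, 176, 5 and 484 under the same settings, and 322 to 610 without 1 replicate. The sign turned for Itpr3 with median centring (-0.00272) and for Atp2a3 without replicate 4 (-0.00984, in a range up to 0.053 without 1 replicate) and on the 4 matched arrays (-0.00306). The causes were not tested. Pairing comes from the design, and the unpaired fit is shown only for its effect.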
